A study of Mus musculus with 24 samples.

Results

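The 9 genes described here (Gnaq, Gna11, Plcb1, Plcb4, Itpr1, Prkcb, Arrb1, Arrb2 and Rgs4) encode the G protein and arrestin machinery that acts downstream of the serotonin 2A receptor, the main target of psilocybin. They were chosen by symbol among 55414 genes counted by RNA-seq in the visual cortex. The choice was made from knowledge of the pathway, with earlier results of these data known. All 9 passed the filter on low counts with 14464 genes in total. The samples came from 24 male C57BL/6J mice aged 8 to 10 weeks and kept on a reversed light cycle, with 1 library per mouse and 6 mice per group. Dark mice received the saline vehicle (PBS) and stayed in the dark, light mice received vehicle and 2.5 h of light, psilocybin-dark mice received 5 mg/kg psilocybin by intraperitoneal injection and stayed in the dark, and psilocybin-light mice received the same dose and 2.5 h of light. The libraries were assigned to these groups by the headings of the study's supplementary count table. For all 24 libraries the drug in the sample labels is the same but the light exposure is the reverse. With the labels' exposure the light comparisons and the interaction change sign, and each drug comparison keeps its values but belongs to the other light condition.

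In the pathway, an activated receptor loads GTP onto the alpha subunits Gq and G11, which switch on phospholipase C beta. The lipase cleaves the membrane lipid PIP2 into IP3, which opens the IP3 receptor calcium channel of the endoplasmic reticulum, and diacylglycerol, which with calcium activates protein kinase C. RGS proteins speed GTP hydrolysis on the alpha subunit and so end the signal, while beta-arrestins bind the phosphorylated receptor, uncouple it from the G protein and carry it into the cell. In cortex the serotonin 2A receptor is known mainly from pyramidal neurons, where this cascade raises excitability.

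Total counts ran from 13552516 to 17906994 per library. All 9 markers of cortical glutamatergic neurons were detected in every library, but their summed level was 1278 to 3550 CPM (counts scaled to a common library total) in the dark mice and 3022 to 5035 CPM in the other 18, and 6 of the 9 were higher in each of the 3 other groups. The summed level of 12 hippocampus markers was 216.7 to 503.8 CPM in the dark mice and 112.6 to 161.3 CPM in all other mice, without overlap and with at most 1 of the 12 at 0, and that of 12 hypothalamus markers was 13.7 to 234.4 CPM in dark against 2.29 to 32.9 CPM elsewhere. Up to 6 of the 12 hypothalamus markers were at 0 in a library, and only 5 passed the filter on low counts. The 10 cerebellum markers summed to 2363 CPM in dark mouse 1, 4772 CPM in dark mouse 6, 2351 CPM in psilocybin-dark mouse 12 and 1485 CPM in light mouse 18, against 171.4 to 364.7 CPM in the other 20 libraries, in which up to 2 of the 10 were at 0. Dark mice 1 and 6 also stood highest of the dark mice in 8 thalamus markers, at 228.2 and 179.7 CPM against 82.3 to 114.1 CPM. Outside dark these markers ran from 78.2 CPM to 228.9 CPM, the highest in psilocybin-light mouse 23. The 6 oligodendrocyte markers were at 7902 CPM in dark mouse 1 and at 1159 to 5673 CPM in all other libraries. In bulk RNA, fewer cells of a type and less RNA per cell cannot be told apart.

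The start regions of the members differed in layout. Of the 9 members, 6 matched the RefSeq promoter table (GRCm38.p6), all but Itpr1, Arrb1 and Arrb2. The 250 bases upstream of the annotated start are shown for Rgs4, the member with the largest change, for Plcb1 and Prkcb, which rose with it, and for Gnaq, the member that differed between the 2 psilocybin groups. Capitals mark every match, on either strand, to 4 short motifs. These are the half-site of the cyclic AMP response element (CRE), which reads TGACG, and the CCAAT box, which is spelled as it is named and is bound by NF-Y. The others are the TATA box, searched as TATAAA, and the GC box bound by Sp family factors, searched as GGGCGG.
Rgs4, chr1:169747643-169747892, minus strand: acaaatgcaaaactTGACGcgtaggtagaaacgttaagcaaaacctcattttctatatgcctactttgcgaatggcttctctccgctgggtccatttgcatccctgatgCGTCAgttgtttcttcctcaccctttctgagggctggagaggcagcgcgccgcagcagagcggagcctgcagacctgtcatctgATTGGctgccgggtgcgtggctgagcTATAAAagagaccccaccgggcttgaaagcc
Plcb1, chr2:134785914-134786163, plus strand: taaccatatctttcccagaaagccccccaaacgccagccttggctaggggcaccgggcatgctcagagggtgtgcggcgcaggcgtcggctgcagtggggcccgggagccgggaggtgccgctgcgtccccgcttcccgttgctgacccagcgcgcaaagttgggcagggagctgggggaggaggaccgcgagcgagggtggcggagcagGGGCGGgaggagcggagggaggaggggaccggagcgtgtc
Prkcb, chr7:122288875-122289124, plus strand: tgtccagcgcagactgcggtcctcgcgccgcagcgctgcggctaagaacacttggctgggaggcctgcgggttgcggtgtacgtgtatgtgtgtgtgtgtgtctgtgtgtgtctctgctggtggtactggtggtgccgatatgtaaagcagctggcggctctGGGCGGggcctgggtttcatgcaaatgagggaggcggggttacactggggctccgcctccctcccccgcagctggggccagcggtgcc
Gnaq, chr19:16132434-16132683, plus strand: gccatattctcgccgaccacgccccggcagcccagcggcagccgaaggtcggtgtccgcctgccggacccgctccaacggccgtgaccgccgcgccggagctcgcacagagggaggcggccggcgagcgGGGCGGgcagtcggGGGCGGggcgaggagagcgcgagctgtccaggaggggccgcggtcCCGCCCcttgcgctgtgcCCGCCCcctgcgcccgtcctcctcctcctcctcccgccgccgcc

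The Rgs4 window held 2 CRE half-sites, at positions -236 and -141 from the start, a CCAAT box at -57 and a TATA box at -31, and no GC box. Of all 32851 promoters in the table, 17.8% held a CRE half-site, 33.8% a CCAAT box, 12.4% a TATA box and 32.7% a GC box. Its GC content was 53.6%, near the median of 52.4% over all promoters. The Plcb1 and Prkcb windows each held 1 GC box and none of the other 3 motifs, at a GC content of 71.2% and 65.2%. The Gnaq window held 4 GC boxes (79.2% GC). Gna11 held 2 (73.2% GC) and the first of 2 Plcb4 promoters held 7 (85.2% GC), some of them overlapping, while the second Plcb4 promoter held none (42.8% GC). Full CRE (TGACGTCA), AP-1 (TGANTCA) and EGR (GCGNGGGCG) motifs, the CArG box and the MEF2 motif were also searched and had no match in these 7 windows. These are matches of letters and not mapped binding sites.

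Per length, Rgs4 was the most abundant member. In psilocybin-light mice its level was 173 ± 24.5 CPM per kilobase of exon (SD, n = 6), followed by Prkcb at 47.9 ± 4.52, Itpr1 at 38.2 ± 2.34, Gnaq at 36.1 ± 1.68, Gna11 at 34.2 ± 1.88, Arrb1 at 31.6 ± 1.03, Plcb1 at 23.0 ± 2.20, Plcb4 at 10.0 ± 1.03 and Arrb2 at 7.46 ± 0.725. On this scale the ranges of mean ± SD overlapped for Itpr1 and Gnaq, for Gnaq and Gna11 and for Gna11 and Arrb1, and for no other neighbours in this order. In dark mice Rgs4 was at 71.9 ± 28.7 CPM per kilobase, and Itpr1, at 57.5 ± 52.0, could not be placed in the order because of its spread. Exons of Plcb1, Itpr1 and Arrb2 overlap other annotated genes, all on the opposite strand except 1 microRNA gene, which held at most 18 counts in any library or were not matched to the count table. The receptor gene Htr2a was below all 9 members in every group by its mean, at 3.94 to 5.19 CPM per kilobase.

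Light and psilocybin, alone and together, were each compared with dark to ask which members either stimulus moved. Rgs4, Plcb1, Prkcb and Arrb1 were higher than in dark in all 3 comparisons, and no member was lower. In light minus dark these 4 of 9 were called at an adjusted p under 0.05 (edgeR quasi-likelihood test with Benjamini-Hochberg adjustment, used for every adjusted p here), while 15.4% of all genes tested were called higher and 16.5% lower. In psilocybin-dark minus dark 4 of 9 were called, beside 11.9% of all genes higher and 12.8% lower. In psilocybin-light minus dark 4 of 9 were called, beside 17.4% higher and 21.0% lower. The median log2 difference of the 9 members was -0.004, 0.079 and -0.007 in the 3 comparisons, beside -0.0103, -0.017 and -0.0211 over all genes. The 3 comparisons share the dark mice, so a shift in those 6 libraries moves all 3 alike. The plot of fold changes gives each member with its interval.

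**Figure D1:**
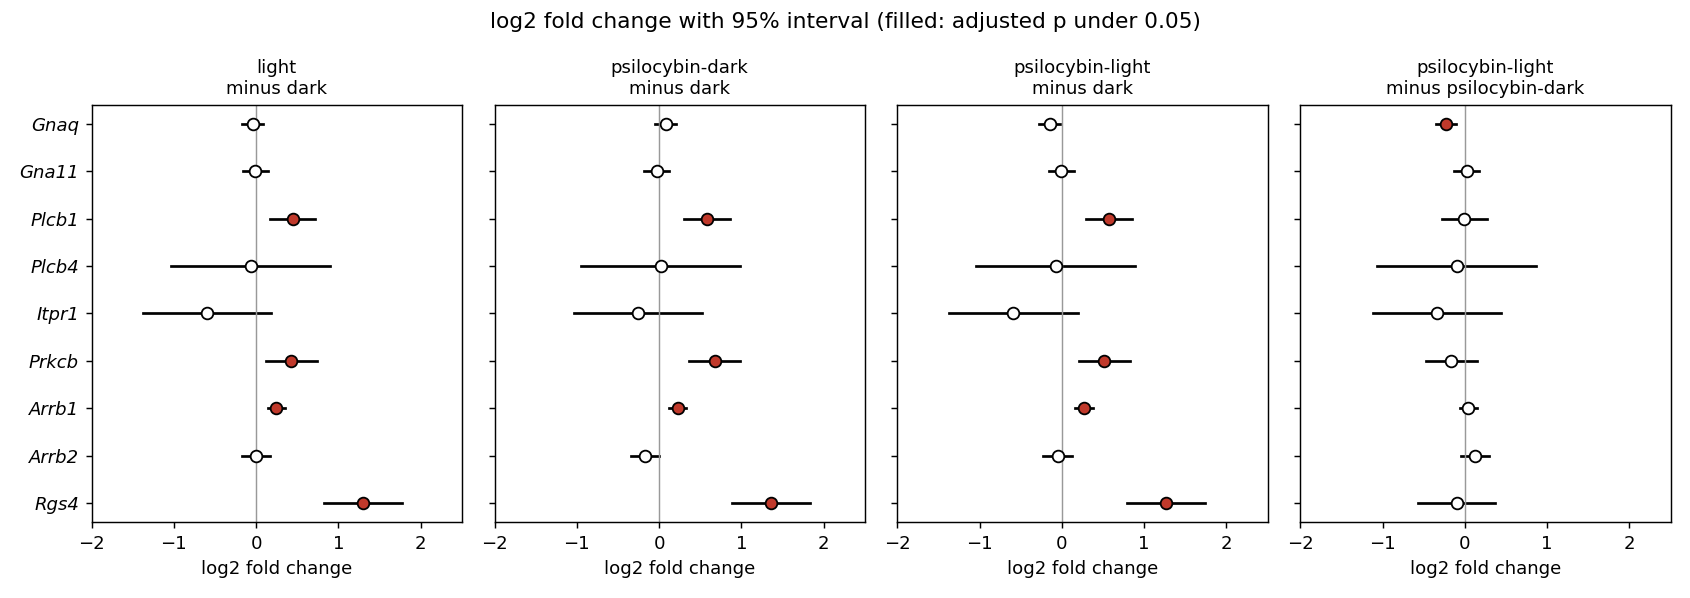
log2 fold change of each of the 9 genes (points) with its 95% interval (lines) in 4 comparisons, filled where the adjusted p was under 0.05. Rgs4, Plcb1, Prkcb and Arrb1 lie to the right of 0 in the 3 comparisons with dark, Plcb4 and Itpr1 have the widest intervals, and Gnaq alone is filled between the psilocybin groups.

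Gnaq (chr19:16110027-16365882, plus strand, GRCm39) encodes the Gq alpha subunit. Its normalized counts, which are scaled to the mean library size by the trimmed mean of M-values (TMM), had a lowest, median and highest value of 4119, 4895 and 5126 in dark, 3920, 4775 and 5128 in light, 4689, 5091 and 5268 in psilocybin-dark, and 3982, 4310 and 4609 in psilocybin-light mice. All 6 psilocybin-light mice lay below all 6 psilocybin-dark mice, but the share of all genes that separated these groups fully was not counted. The log2 difference between them was -0.23 (SE 0.06, adjusted p = 0.0244; exact permutation p = 0.00216, the smallest that 6 mice against 6 allow), and Gnaq was the only member among the 6.38% of genes called there. The call was lost in 4 of 24 fits that left out 1 mouse, those without psilocybin-dark mouse 10 or psilocybin-light mouse 19, 23 or 24, at adjusted p of 0.0603, 0.0560, 0.0628 and 0.0615, and when genes with low counts were not filtered (0.079). Without psilocybin-dark mouse 8 it lay at the threshold (0.05 after rounding, just below it unrounded).

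Against dark, Gnaq differed by -0.042 in light, 0.079 in psilocybin-dark and -0.15 in psilocybin-light mice on the log2 scale, with adjusted p of 0.632, 0.366 and 0.0561. The psilocybin-light difference passed the threshold without dark mouse 1 (-0.18, adjusted p = 0.0186), light mouse 13 (0.0499) or light mouse 18 (0.0312), and without both dark mice 1 and 6 (-0.21, 0.0054). Gna11 (chr10:81364558-81381060, minus strand), which encodes the closely related G11 alpha subunit, had group medians of 2473 to 2565 normalized counts. Its log2 differences from dark were -0.012, -0.028 and -0.007, with 95% intervals that lay within -0.18 to 0.14. In dark mice Gna11 was lowest in mice 1 and 6 (2033 and 2103) and at 2524 to 2957 in the other 4, and in a fit against mice 1 and 6 alone it was higher in all 3 other groups, by 0.25 to 0.28 (adjusted p = 0.0028, 0.00485 and 0.00172). Without those 2 mice it was lower in psilocybin-dark mice (-0.14, adjusted p = 0.0359), and without all 4 libraries high in cerebellum markers it was lower in psilocybin-dark (-0.13, 0.0471) and psilocybin-light mice (-0.14, 0.0283), so its direction too turned with the dark libraries used. Per kilobase of exon, the median ratio of Gnaq to Gna11 was 1.22 in dark, 1.13 in light, 1.25 in psilocybin-dark and 1.05 in psilocybin-light mice. In the psilocybin-light mice it ranged from 0.995 to 1.14 and in the psilocybin-dark mice from 1.20 to 1.35, without overlap. How many ratios of other genes separated these groups was not counted.

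Plcb1 (chr2:134627987-135317178, plus strand) encodes phospholipase C beta 1, an isoform of forebrain neurons. Its lowest, median and highest normalized counts were 2127, 3413 and 4365 in dark, 3639, 4540 and 5152 in light, 3768, 5010 and 5843 in psilocybin-dark, and 4169, 5070 and 5541 in psilocybin-light mice. In each of the 3 other groups 5 of 6 mice were above all dark mice. Plcb1 rose by 0.44 (SE 0.13, adjusted p = 0.0134) in light, 0.58 (SE 0.13, adjusted p = 0.00269) in psilocybin-dark and 0.57 (SE 0.13, adjusted p = 0.00167) in psilocybin-light mice on the log2 scale. The 3 calls held in all 24 fits that left out 1 mouse. Without dark mice 1 and 6 the light difference was 0.27 (adjusted p = 0.053), and against those 2 dark mice alone it was 0.90 (adjusted p = 0.000102). In a fit of the light and dark mice alone it was 0.44 (adjusted p = 0.0576).

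Plcb4 (chr2:135500926-135856870, plus strand) lies 183748 bases beyond the end of Plcb1 and encodes phospholipase C beta 4, the isoform known from Purkinje cells and thalamus. In dark mice 1 to 6 its normalized counts were 3203, 337, 533, 338, 791 and 4662. The lowest, median and highest were 1235, 1479 and 2122 in light, 1079, 1641 and 2494 in psilocybin-dark, and 1394, 1488 and 1803 in psilocybin-light mice. Dark mice 2 to 5 were thus below all 18 mice of the other groups, and dark mice 1 and 6 were above all of them. The fitted log2 differences from dark were -0.065, 0.021 and -0.078 with SE 0.47 and 95% intervals from -1.05 to 0.99, although the dark median of 662 was below that of each other group. Without dark mice 1 and 6, Plcb4 was higher than in dark by 1.66 in light, 1.75 in psilocybin-dark and 1.65 in psilocybin-light mice (adjusted p = 7.99e-06, 8.51e-06 and 6.95e-06). Against dark mice 1 and 6 alone it fell, with log2 differences of -1.32, -1.23 and -1.33 (adjusted p = 5.81e-05, 0.00014 and 4.26e-05). The direction of any Plcb4 difference from dark therefore rested on which dark libraries were used. The ratio of Plcb1 to Plcb4 per kilobase of exon ran from 0.425 to 7.62 in the dark mice and from 1.09 to 3.26 in the other 18.

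Itpr1 (chr6:108190048-108528070, plus strand) encodes the type 1 IP3 receptor, the main neuronal form, which is very abundant in Purkinje cells. Its normalized counts in dark mice 1 to 6 were 26069, 6861, 8955, 5667, 9783 and 44332. The lowest, median and highest were 8904, 9902 and 17647 in light, 10183, 12313 and 25851 in psilocybin-dark, and 10320, 11164 and 12325 in psilocybin-light mice. The 4 highest libraries were dark mice 6 and 1, psilocybin-dark mouse 12 and light mouse 18, the same 4 whose cerebellum markers stood apart. Among them, Gabra6, a receptor subunit of cerebellar granule cells, was at 135 to 443 CPM, against 0 to 6.57 CPM in the other 20, and Pcp2, a Purkinje cell gene, at 71.0 to 210 CPM. The parts of cerebellar and of thalamic RNA in the Itpr1 and Plcb4 values were not tested.

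Itpr1 differed from dark by -0.59, -0.25 and -0.59 (SE 0.38, adjusted p = 0.241, 0.666 and 0.226), with 95% intervals from -1.37 to 0.52. Without the 4 libraries, a set chosen after their values were seen, it was higher than in dark by 0.34 in light, 0.60 in psilocybin-dark and 0.52 in psilocybin-light mice (adjusted p = 0.022, 0.000431 and 0.000764). Against dark mice 1 and 6 alone it fell, with log2 differences of -1.65, -1.31 and -1.64. Across the 24 mice, Plcb4 and Itpr1 had a Pearson r of 0.85 on the log2 CPM scale, and of 0.82 over the 18 mice outside the dark group, of which psilocybin-dark mouse 12 and light mouse 18 had the highest values of both genes.

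**Figure D2:**
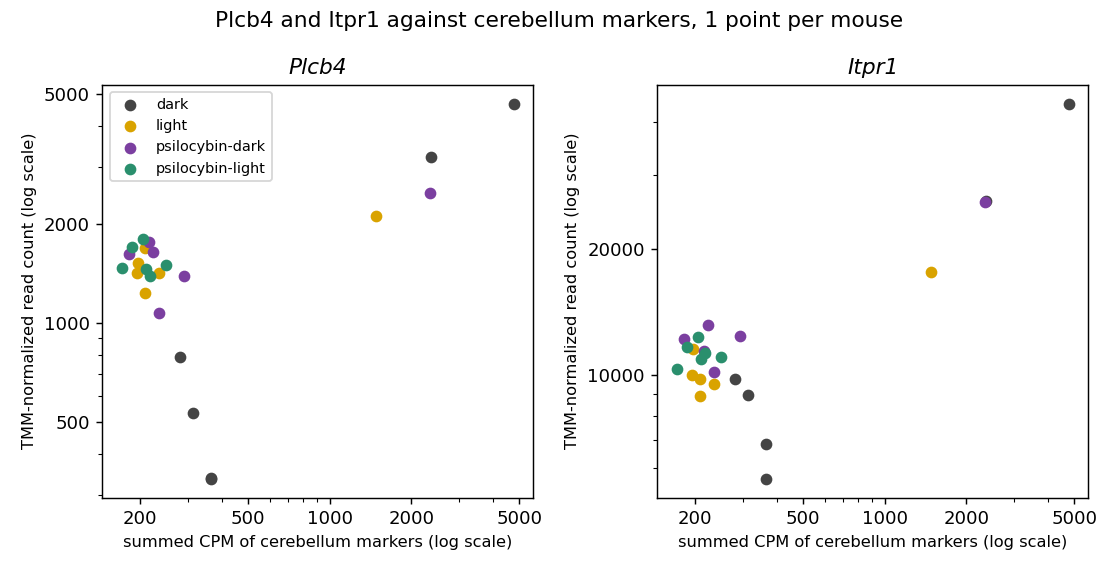
TMM-normalized counts of Plcb4 and Itpr1 (y axis, log scale) against the summed CPM of 10 cerebellum markers (x axis, log scale), 1 point per mouse, coloured by group. Dark mice 1 and 6, psilocybin-dark mouse 12 and light mouse 18 lie apart at 1485 CPM or more and hold the highest Itpr1 counts, while the other 4 dark mice hold the lowest Plcb4 counts.

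Prkcb (chr7:121887974-122233625, plus strand) encodes protein kinase C beta, a calcium- and diacylglycerol-dependent kinase. Its lowest, median and highest normalized counts were 3975, 6324 and 8186 in dark, 7232, 8120 and 9359 in light, 7884, 10016 and 11031 in psilocybin-dark, and 7349, 8775 and 9816 in psilocybin-light mice. Dark mice 1, 2 and 4 (3975, 5228 and 4037) were below every mouse of the other groups, and dark mice 3, 5 and 6 (7419 to 8186) lay within their range. Prkcb rose by 0.68 (SE 0.15, adjusted p = 0.00214) in psilocybin-dark and 0.51 (SE 0.15, adjusted p = 0.0092) in psilocybin-light mice. In light mice the difference was 0.43 (SE 0.15, adjusted p = 0.033), and it missed the threshold in 5 of 24 fits that left out 1 mouse, those without dark mouse 1, 2 or 4 or light mouse 13 or 16 (0.33, 0.38, 0.33, 0.39 and 0.40, adjusted p = 0.0652 to 0.0809). In fits of only the compared groups the adjusted p was 0.128 in light and 0.0533 in psilocybin-light mice. Between psilocybin-dark and light mice, 5 of 6 psilocybin-dark mice were above all light mice, with a log2 difference of 0.25 (95% interval -0.057 to 0.56, adjusted p = 0.479).

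Arrb1 (chr7:99184470-99256620, plus strand) encodes beta-arrestin 1. Its lowest, median and highest normalized counts were 5160, 5548 and 5992 in dark, 6019, 6393 and 7275 in light, 5803, 6426 and 6991 in psilocybin-dark, and 6299, 6650 and 6882 in psilocybin-light mice. The change was small beside that of Rgs4, but so was the spread, with a coefficient of variation of 3.2% to 6.9% within groups. Arrb1 rose by 0.24 (SE 0.05, adjusted p = 0.00083) in light, 0.23 (SE 0.05, adjusted p = 0.00211) in psilocybin-dark and 0.27 (SE 0.05, adjusted p = 0.000247) in psilocybin-light mice. The 3 calls held without any 1 mouse, and they held without dark mice 1 and 6 (0.23, 0.21 and 0.26) and against those 2 mice alone (0.29, 0.27 and 0.32). Its values in light and in psilocybin-light mice were all above those in dark mice, and 10.0% and 15.8% of all genes were without overlap in these comparisons.

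Arrb2 (chr11:70323381-70333488, plus strand) encodes beta-arrestin 2, whose role at the receptor overlaps with that of Arrb1. Its lowest, median and highest normalized counts were 527, 601 and 750 in dark, 546, 613 and 691 in light, 478, 556 and 612 in psilocybin-dark, and 536, 588 and 689 in psilocybin-light mice. The groups overlapped throughout. Its log2 differences from dark were -0.004 (95% interval -0.18 to 0.17) in light, -0.17 (-0.35 to 0; adjusted p = 0.137) in psilocybin-dark and -0.053 (-0.23 to 0.12) in psilocybin-light mice. The interval in psilocybin-dark mice included falls larger than the Arrb1 rise, and the difference was called (-0.25, adjusted p = 0.0376) without the 4 libraries high in cerebellum markers. Per kilobase of exon, the median ratio of Arrb1 to Arrb2 was 3.54 in dark, 3.97 in light, 4.51 in psilocybin-dark and 4.38 in psilocybin-light mice.

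Rgs4 (chr1:169569046-169575218, minus strand) encodes a GTPase-activating protein for Gq and Gi alpha subunits that is enriched in cortical neurons. Its lowest, median and highest normalized counts were 1793, 4069 and 5382 in dark, 5806, 9584 and 10072 in light, 5557, 9703 and 11476 in psilocybin-dark, and 6701, 8719 and 10371 in psilocybin-light mice. All 18 mice outside the dark group were above all 6 dark mice. Of all genes, 10.0% did not overlap between light and dark, 5.58% between psilocybin-dark and dark and 15.8% between psilocybin-light and dark, and Rgs4 was the only member without overlap in all 3. Dark mice 1 and 6 were the lowest of their group (1906 and 1793), and psilocybin-dark mouse 12 and light mouse 18 were the lowest of theirs (5557 and 5806).

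Rgs4 rose 2.45-fold in light (log2 1.30, SE 0.23, adjusted p = 0.000196), 2.57-fold in psilocybin-dark (log2 1.36, SE 0.23, adjusted p = 0.0002) and 2.40-fold in psilocybin-light mice (log2 1.26, SE 0.23, adjusted p = 0.000172). The exact permutation p was 0.00216 in each. A rise at least as large was fitted for 1.13%, 0.89% and 1.48% of all genes. The log2 rise was 0.99, 1.06 and 0.96 without dark mice 1 and 6, and 2.26, 2.32 and 2.23 against those 2 mice alone. It was called in all of these fits and in all 24 that left out 1 mouse.

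**Figure D3:**
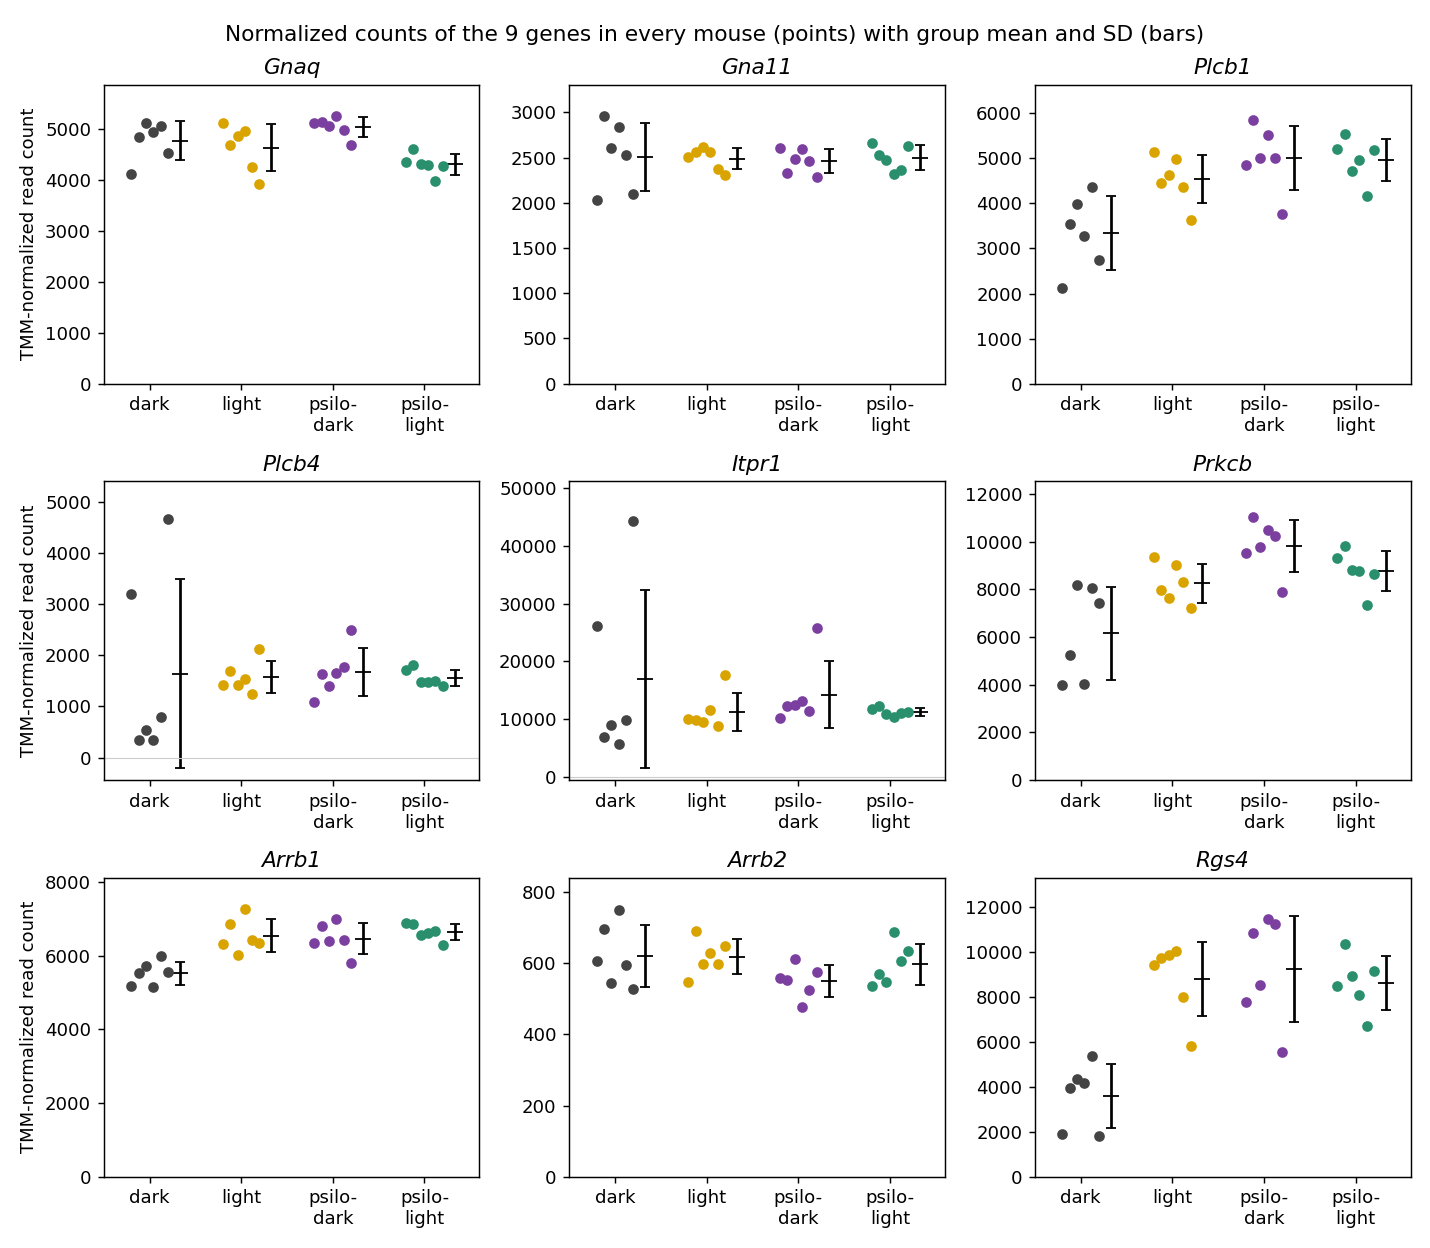
TMM-normalized read count (y axis, linear from 0) of each of the 9 genes in the 24 mice, grouped as dark, light, psilocybin-dark (psilo-dark) and psilocybin-light (psilo-light), with points for mice in the order of their numbers and bars for the group mean and SD (n = 6). Rgs4 is above the dark mice in all 18 other mice, Plcb4 in dark is split into 2 high and 4 low mice, and Gnaq is lower in psilocybin-light than in psilocybin-dark mice.

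The hippocampus markers also differed from dark in the comparisons in which Rgs4, Plcb1, Prkcb and Arrb1 rose. Every dark library lay above every other library in summed hippocampus markers. Of the 11 tested, 6 were lower and 1 higher in light than in dark, 4 and 0 in psilocybin-dark, and 7 and 1 in psilocybin-light. With the mean level of these markers as a covariate, no member was called in any comparison with dark. Calls over all 14464 genes also dropped, from 4611 to 500 in light, 3573 to 1 in psilocybin-dark and 5551 to 641 in psilocybin-light. The loss of calls was thus not particular to the members. Rgs4 then stood at 0.80, 0.85 and 0.70 (adjusted p = 0.345, 0.60 and 0.45) and Plcb1 at 0.072, 0.20 and 0.15, while Prkcb stood at -0.15, 0.083 and -0.14 and Arrb1 at 0.13, 0.10 and 0.13. The summed CPM of the 12 markers separated dark from the other groups without overlap. Marker level and group therefore cannot be told apart in these comparisons. The covariate was the mean log2 CPM of the 11 tested markers. The Gnaq difference between the psilocybin groups was -0.24 under this covariate (adjusted p = 0.0119). The summed hippocampus markers ran from 135.6 to 161.3 CPM in psilocybin-dark and from 112.6 to 148.2 CPM in psilocybin-light mice. Only psilocybin-light mouse 23 (148.2 CPM) lay in the psilocybin-dark range, so marker level and group were only partly separable here. With the cerebellum markers as a covariate, chosen after the data were seen, Rgs4, Plcb1 and Arrb1 remained called in the 3 comparisons with dark (Rgs4 at 0.94, 1.08 and 0.79, Plcb1 at 0.23, 0.41 and 0.30, Arrb1 at 0.21, 0.20 and 0.22). The Plcb1 difference was reduced by more than 1.5 times in light (adjusted p = 0.0413) and in psilocybin-light mice (0.0139). The Rgs4 difference was reduced by more than 1.5 times in psilocybin-light mice, from 1.26 to 0.79. Prkcb remained called only in psilocybin-dark mice (0.60, adjusted p = 0.00639). Of all genes, 5261, 3945 and 5659 were called in the 3 comparisons under the cerebellum covariate.

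**Figure D4:**
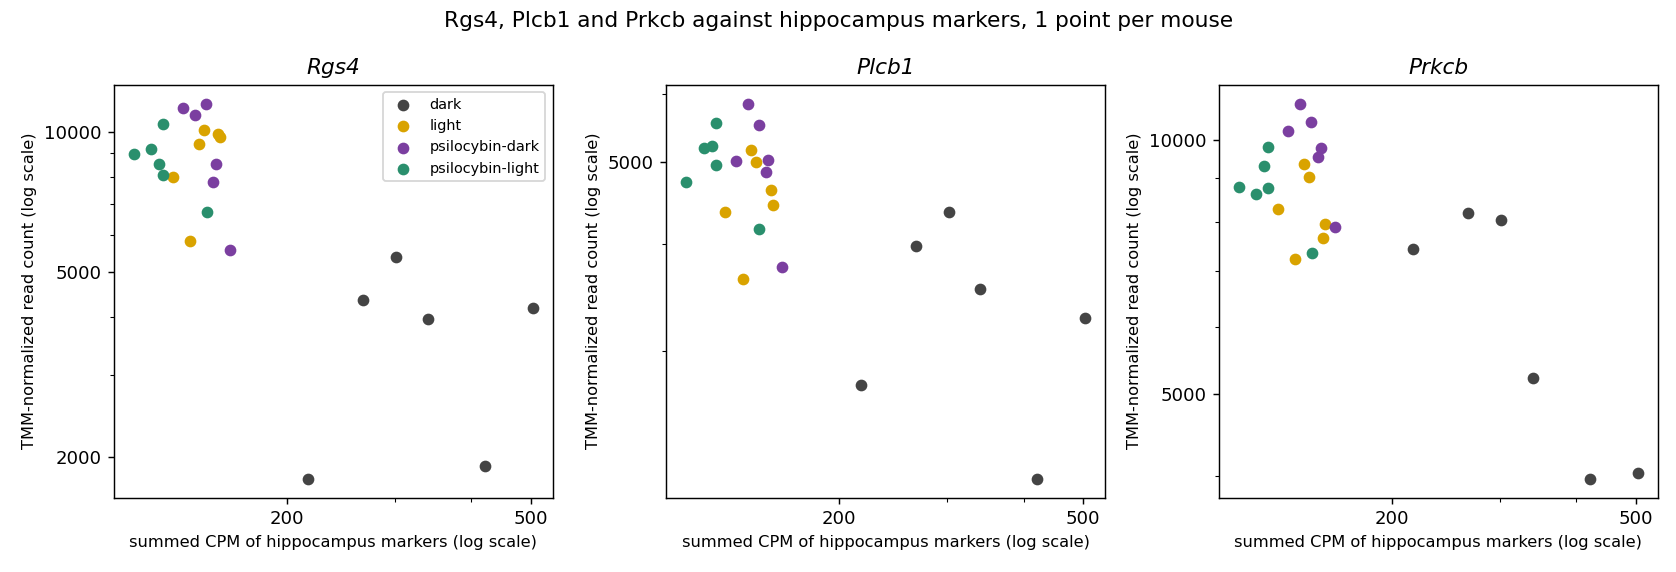
TMM-normalized counts of Rgs4, Plcb1 and Prkcb (y axis, log scale) against the summed CPM of 12 hippocampus markers (x axis, log scale), 1 point per mouse, coloured by group. The 6 dark mice lie to the right at 216.7 CPM or more and the other 18 at 161.3 CPM or less, so marker level and group are not separable.

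To ask whether the drug changed the members beyond light, and the light beyond the drug, the 3 non-dark groups were compared. No member was called between psilocybin-light and light mice, where 0.608% of all genes were, or between psilocybin-dark and light mice, where 0.456% were. The Rgs4 difference was -0.031 (95% interval -0.50 to 0.44) between psilocybin-light and light mice, 0.069 (-0.40 to 0.54) between psilocybin-dark and light mice and -0.10 (-0.57 to 0.37) between the psilocybin groups. None of these intervals reached the size of the rise over dark, which does not show that the groups were alike. The Arrb1 differences were tighter, at 0.023 (-0.081 to 0.13), -0.016 (-0.12 to 0.089) and 0.039 (-0.065 to 0.14).

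The interaction asked whether the effect of psilocybin differed between light and dark. Rgs4 was the only one of 9 members called, beside 8.73% of all genes, at a log2 value of -1.40 (SE 0.32, adjusted p = 0.0103), with a psilocybin difference of 1.36 in the dark and of -0.031 in the light. It was called in all 24 fits that left out 1 mouse, and it was lost with the hippocampus covariate (-0.95, adjusted p = 0.545). With that covariate 0 of all genes were called in the interaction. Prkcb (-0.59, SE 0.21, adjusted p = 0.0822), Arrb1 (-0.20, SE 0.07, adjusted p = 0.0735) and Plcb1 (-0.45, SE 0.19, adjusted p = 0.131) had negative values that missed the threshold. Prkcb passed it without dark mouse 3, 5 or 6 (adjusted p = 0.0388, 0.0374 and 0.0461), and Arrb1 without dark mouse 5 or psilocybin-dark mouse 12 (0.0410 and 0.0269). The interaction uses the dark mice, with the marker levels given above.

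The wider pathway was read from 10 lists of genes. Of 97 other genes tested, 30 were higher and 18 lower in light than in dark, 31 and 10 in psilocybin-dark, and 31 and 25 in psilocybin-light, with median log2 differences of 0.035, 0.056 and 0.018. Over all genes tested 15.4% were higher and 16.5% lower in light, 11.9% and 12.8% in psilocybin-dark, and 17.4% and 21.0% in psilocybin-light, with medians of -0.0103, -0.017 and -0.0211, and the counts of each list can be read against these shares. Without dark mice 1 and 6 the 97 genes gave 26 higher and 21 lower in light, 24 and 16 in psilocybin-dark, and 30 and 24 in psilocybin-light. In that fit 5651, 4808 and 6193 of all 14281 genes were called, 2903, 2435 and 3110 of them higher. Without the 4 libraries high in cerebellum markers the 97 genes gave 31 and 26, 31 and 21, and 34 and 29. There 6086, 5429 and 6830 of all 14135 genes were called, 2857, 2571 and 3158 of them higher. With the hippocampus covariate 1 of the 97 was higher and 2 lower in light, 0 and 0 in psilocybin-dark, and 1 and 2 in psilocybin-light. Of all 14464 genes 500, 1 and 641 were then called, 208, 1 and 204 of them higher. Between the psilocybin groups 0 of the 97 were higher and 2 lower, beside 923 of all genes called, 376 of them higher. Values below are log2 differences in light minus dark and psilocybin-dark minus dark, in that order, for the genes with the largest changes.

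Among receptors that couple to Gq, 4 of 11 tested were higher and 5 lower in light, and 4 and 2 in psilocybin-dark. The histamine receptor Hrh1 (1.06 and 1.00) and the muscarinic receptor Chrm3 (0.96 and 1.01) rose in both. Htr2c, which encodes the serotonin 2C receptor, fell (-2.26 and -2.55, adjusted p = 6.73e-05 and 4.25e-05), from a mean of 1402 normalized counts in dark to 292.8, 239.7 and 246.7 in light, psilocybin-dark and psilocybin-light mice. The dark mice ran from 337.2 to 2123.4 (SD 709.8). The lowest of them was below the highest mouse of each other group (460.9, 345.8 and 466.9). Htr2a, the receptor psilocybin acts on, was not called, at 0.008 (95% interval -0.43 to 0.44), 0.40 (-0.033 to 0.83) and, in psilocybin-light, 0.33 (-0.10 to 0.76).

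Of the 12 other phospholipase C genes, 4 were higher and 2 lower in light, and 4 and 1 in psilocybin-dark. Plcd1 (0.80 and 0.54) and the catalytically inactive relative Plcl2 (0.62 and 0.66) rose, and Plce1 fell (-1.49 and -1.48). Of the 8 other genes for IP3 receptors, kinases and phosphatases, 1 was higher and 2 lower in light and 0 and 1 in psilocybin-dark, where Itpkb, an IP3 kinase, fell (-0.85 and -0.79). Of 8 other protein kinase C genes, 1 was higher and 1 lower in each comparison, and Prkcz, an atypical isoform, rose (0.24 and 0.15). The diacylglycerol kinases Dgkz (0.64 and 0.64) and Dgkg (-1.16 and -0.96) changed in opposite directions, in a list of 11 with 3 higher and 2 lower in light, and 4 and 2 in psilocybin-dark. In the PIP2 supply list of 11 genes, 5 were higher and 2 lower in light, and 6 and 1 in psilocybin-dark. Pip5k1c (0.57 and 0.57), a kinase that makes PIP2 at synapses, and Pip4k2c (0.61 and 0.62) rose, Pip5k1b, which also makes PIP2, fell (-0.67 and -0.56), and Cds2 was lower in light (-0.26) and not called in psilocybin-dark (-0.098).

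Of the 5 other genes on the list of arrestins and receptor kinases, 1 was higher and 2 lower in light, and 2 and 0 in psilocybin-dark. The receptor kinase Grk2 rose with Arrb1 (0.37 and 0.32), while Grk3 (-0.36) and Grk5 (-0.35) were lower in light and not called in psilocybin-dark (-0.28 and -0.23). Of 15 other RGS genes, 4 were higher and 1 lower in each comparison. Rgs11 (1.51 and 0.94) and Rgs6 (1.21 and 1.21), members of another RGS subfamily, rose on the same scale as Rgs4, and Rgs12 fell (-0.61 and -0.57). Among 15 protein kinase C substrates and calcium effectors, 7 were higher and 1 lower in light, and 6 and 1 in psilocybin-dark, with Nrgn, a calmodulin-binding substrate that is also on the cortical marker list, at 1.23 and 0.96, and the growth cone protein Gap43 at -0.59 and -0.51. Of the remaining Gq class genes, 1 was tested and was not called.

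Genes most like each member across the 24 mice were ranked by Pearson r of log2 CPM among the 11110 genes whose mean count reached 100. For Rgs4 they were Egr3 (0.98), Baalc (0.98) and Nrsn1 (0.98), with r of 0.89, 0.88 and 0.91 over the 18 mice outside the dark group. Plcb1 was followed most closely by Btbd8 (0.99), Atp2b1 (0.99) and Synj2 (0.98), Prkcb by Asap1 (0.96), Tut7 (0.95) and Fhod3 (0.95), and Arrb1 by Pou6f1 (0.93), Bcor (0.93) and Zmiz2 (0.92). For Itpr1 they included Kcnj12 and Kcnd2 (0.97 and 0.96), and for Plcb4 they were Tmem200b, Mtcl1 and Fndc5 (0.97, 0.96 and 0.96). Among the 3 closest to Gnaq were Osbpl8 (0.96) and Zfp451 (0.93). Gna11 was closest to Pdzd4, Klf16 and Sowaha (0.93, 0.92 and 0.91), and Arrb2 to Nsfl1c, Ptov1 and Plppr3 (0.82, 0.77 and 0.75). Among the members themselves the closest pairs were Plcb1 and Rgs4 (r = 0.94, and 0.84 without the dark mice) and Plcb1 and Prkcb (0.85 and 0.87), while Arrb1 fell from 0.83 to 0.51 with Rgs4 when the dark mice were left out. These correlations are descriptions, since all points share the same libraries, group differences and tissue composition.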

How the data were processed

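Visual cortex mRNA of 24 mice was sequenced, 6 per group and 1 library per mouse. The authors trimmed reads with cutadapt, aligned them to GRCm39 with STAR (the submitters' processing notes name mm10) and made counts per Ensembl gene by htseq-count. The strand setting and the annotation release are not given in the sources used here. The deposited values are raw counts of 55414 genes, from 13552516 to 17906994 per library, all used. Groups follow the headings of the supplementary count table, whose light exposure is the reverse of that in the sample labels.

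Counts were fitted in R 4.3.3 with edgeR 4.0.16 (TMM, quasi-likelihood test, 1 term per group, all 24 mice in 1 fit), for the 14464 genes with a count of at least 30 in any library. The Benjamini-Hochberg method was applied to the two-sided p-values of all of them, and an adjusted p under 0.05 was called. Members were also compared by two-sided exact permutation of mean log2 CPM (924 splits, smallest p 0.00216). The lowest count of a member was 356, a counting error of 5.3%. The script was tested on simulated data. Named genes are the members, Htr2a, up to 2 genes per direction and list with the largest called change in light or psilocybin-dark against dark and a mean count of at least 100, and the 3 genes most correlated with each member. Some genes that this rule names are not reported here. The members and lists were chosen with earlier results of these data known. Marker lists are summed CPM. The p-values treat the mice of a group as independent.

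Alternatives were DESeq2 1.42.0, its size factors, other filters on low counts (filterByExpr or none), a fit of only the compared groups, 1 surrogate variable (sva 3.50.0), hippocampus and cerebellum marker covariates, leaving out each mouse or the dark mice 1 and 6 or 2 to 5, a threshold of 0.01 and the labels' light exposure. The cerebellum covariate and the fit without the 4 libraries highest in cerebellum markers were chosen after seeing the data. Positions and exon lengths are from GENCODE vM39 (14427 tested genes matched) and promoters from RefSeq (GRCm38.p6). Figures were drawn with matplotlib 3.10.9.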

Additional observations from a re-analysis of the deposited data

Results flagged for a closer look

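Itpr1 in light mouse 18 was 17647 normalized counts against 8904 to 11574 in the other 5 light mice, and its gap to the nearest mouse was 0.695 of the range of the group, above Dixon's 95% critical value for 6 mice. Itpr1 in psilocybin-dark mouse 12 was 25851 against 10183 to 13141 in the other 5 psilocybin-dark mice, a ratio of 0.811. These are 2 of the 4 libraries with the highest cerebellum markers (1485 and 2351 CPM), and the part of those cells was not tested. Of 36 such checks these 2 were flagged. Chance alone would flag about 1 in 20 if the checks were independent. They share the same 24 libraries, so this rate is only a rough guide. The effect of psilocybin on Rgs4 differed between light and dark by -1.40 on the log2 scale (SE 0.32, edgeR quasi-likelihood adjusted p = 0.0103), from a rise of 1.36 in the dark to a difference of -0.031 in the light. With the hippocampus marker covariate it was -0.95 (adjusted p = 0.545), and 0 of all genes were called in that fit of the interaction.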

How the results depend on the processing

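Members called (4 in each comparison with dark, 1 between the psilocybin groups and in the interaction, 0 elsewhere) ranged over the fits that left out 1 mouse from 3 to 4 in light, 4 to 4 in psilocybin-dark and 4 to 5 in psilocybin-light against dark, 0 to 1 between the psilocybin groups and 1 to 3 in the interaction. In the same order, 3937 to 4980, 2751 to 4177, 4907 to 5774, 585 to 1224 and 832 to 2112 of all genes were called. The counts of members moved, for light minus dark, psilocybin-dark minus dark, psilocybin-light minus dark and the interaction in turn, to 0, 0, 0 and 0 with the hippocampus covariate and to 7, 8, 7 and 8 without dark mice 2 to 5. Calls over all genes moved too, from 4611, 3573, 5551 and 1263 in the main fit. They were 500, 1, 641 and 0 with the hippocampus covariate. Without dark mice 2 to 5 they were 6228, 5915, 6796 and 4018 of 14350 genes. Without dark mice 1 and 6 there were 7 members called in psilocybin-dark and 4 in the interaction, beside 4808 and 3079 of 14281 genes. Without the 4 libraries high in cerebellum markers there were 8, 8 and 6 members in psilocybin-dark, psilocybin-light and the interaction. Beside them 5429, 6830 and 3781 of 14135 genes were called. In light minus dark there were 2 members with only the compared groups, beside 3089 of 14461 genes, and 2 at a threshold of 0.01. In the interaction there were 2 members with DESeq2, 5 with 1 surrogate variable and 2 with the cerebellum covariate, beside 1665, 2629 and 1992 of all genes. At 0.01 there were 0. Between the psilocybin groups there were 0 members without a filter, beside 463 of 31758 genes, and 0 at 0.01. How many of all genes passed 0.01 was not counted. Psilocybin-dark minus light had 1 member (Gnaq) with the cerebellum covariate, beside 755 of all genes. With the labels' light exposure, which renames the groups, psilocybin-dark minus dark and psilocybin-light minus dark had 0 and 0 members, beside 88 and 66 of all genes. Psilocybin-light minus light and psilocybin-dark minus light then had 4 and 4, beside 3573 and 5551. Signs turned with a call for Plcb4, in light to 0.83 (surrogate variable), 1.28 (cerebellum covariate), 1.66 (without dark mice 1 and 6) and 1.55 (without the 4 libraries), in psilocybin-light to 1.16, 1.48, 1.65 and 1.63 in the same order, and without dark mice 2 to 5 to -1.23 in psilocybin-dark and 1.23 in the interaction. Itpr1 turned to 0.34, 0.60 and 0.52 without the 4 libraries, to 0.87 in psilocybin-dark and -0.87 in the interaction without dark mice 1 and 6, and to 0.64 in psilocybin-light with the cerebellum covariate. Gna11 turned to 0.27, 0.25, 0.28 and -0.24 (interaction) without dark mice 2 to 5, and Prkcb to -0.15 in light and -0.14 in psilocybin-light, uncalled, with the hippocampus covariate. The cause was not tested. Of 684 values of single members under these settings, 605 stayed on the same side of the threshold without a called change of sign, and 41 of these changed sign while uncalled. Of 1512 values with 1 mouse left out, 1495 did, 69 of them with such a change of sign. Among the members, depth matters most for Arrb2 and, in dark, Plcb4, which had the lowest counts. Their counting error at the lowest count was 4.63% and 5.3%. The coefficient of variation between dark mice was larger, at 14.1% and 111.9%.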
